A study of Rattus norvegicus with 3 samples.

Results

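The 8 genes described here, Psmb11, Prss16, Ly75, Ctsl, Ctss, Psmb8, Psmb9 and Psmb10, were chosen as genes of peptide processing in the thymic cortex, and all 8 were found among 34034 gene names. They were measured in 2 droplet single-cell RNA libraries from thymus of Lewis rats, an inbred strain, at 8 weeks of age: stromal cells sorted as negative for CD45, the surface protein of blood-derived cells, and thymocytes, the T cell precursors. Thymi were digested with Liberase TH for the stroma and collagenase D for the thymocytes, and no treatment or genetic change is named for either library, and the number of animals behind each is not given in the sources used here. Each group had 1 sample, so no test was run, no value has a replicate check, and every comparison below is between cell labels within a library. A spatial section of the same series was not used here.

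Proteasomes cut proteins into the peptides that MHC class I presents. In most cells their 3 catalytic sites are Psmb6, Psmb7 and Psmb5. Interferon and immune cells replace these with Psmb9, Psmb10 and Psmb8, which form the immunoproteasome. Cortical thymic epithelial cells (cTEC), on which immature thymocytes are positively selected, make Psmb11 (β5t), which takes the place of Psmb5 or Psmb8 and so turns the particle into the thymoproteasome. For MHC class II, cTEC use the serine protease Prss16 and cathepsin L (Ctsl), while most other antigen-presenting cells use cathepsin S (Ctss) to trim the invariant chain, the chaperone that blocks the class II groove. Ly75 (DEC-205) is an endocytic receptor long used as a surface marker of cTEC.

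Promoter sequences are shown because the immunoproteasome genes are classical interferon targets, and it can be read directly which members hold an interferon-type element. RefSeq windows on GRCr8, 250 bases before to 50 after the annotated start, were given for 7 of the 8 genes; Psmb11 had no entry. The letters searched, on both strands, were GAAA, any 2 bases, GAAA. They were found in 4 of the 7 windows, against 3.92% of 33469 windows of all genes. The 4 are printed 5′ to 3′ along the gene's strand, with the matches in capitals: Prss16 at chr17:47209831-47210130 on the plus strand, Ctss at chr2:185775146-185775445 on the plus strand, Psmb8 at chr20:4656982-4657281 on the minus strand and Psmb10 at chr19:50743243-50743542 on the minus strand.
Prss16: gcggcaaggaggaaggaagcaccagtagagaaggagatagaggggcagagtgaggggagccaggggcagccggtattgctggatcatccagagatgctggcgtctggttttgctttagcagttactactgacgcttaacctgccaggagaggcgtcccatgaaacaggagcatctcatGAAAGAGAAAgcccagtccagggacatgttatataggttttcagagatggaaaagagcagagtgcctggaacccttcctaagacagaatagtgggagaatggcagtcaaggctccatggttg
Ctss: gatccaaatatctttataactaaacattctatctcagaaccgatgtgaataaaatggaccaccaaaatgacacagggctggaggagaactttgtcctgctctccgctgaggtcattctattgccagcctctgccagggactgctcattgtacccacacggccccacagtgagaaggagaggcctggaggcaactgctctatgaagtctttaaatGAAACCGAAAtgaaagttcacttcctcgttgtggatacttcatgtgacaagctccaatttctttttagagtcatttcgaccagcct
Psmb8: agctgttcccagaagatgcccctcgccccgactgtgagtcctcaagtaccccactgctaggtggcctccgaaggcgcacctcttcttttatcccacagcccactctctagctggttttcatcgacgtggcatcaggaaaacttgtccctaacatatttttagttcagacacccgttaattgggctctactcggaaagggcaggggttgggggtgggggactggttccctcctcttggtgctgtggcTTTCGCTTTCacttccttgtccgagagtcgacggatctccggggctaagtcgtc
Psmb10: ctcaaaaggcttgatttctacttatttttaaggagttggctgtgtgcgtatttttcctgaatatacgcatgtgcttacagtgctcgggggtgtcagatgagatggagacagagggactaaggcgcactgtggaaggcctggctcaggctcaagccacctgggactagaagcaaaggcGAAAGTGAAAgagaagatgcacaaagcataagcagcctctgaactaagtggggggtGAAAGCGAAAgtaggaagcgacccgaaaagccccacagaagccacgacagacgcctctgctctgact
Psmb10 held 2 matches, GAAAGTGAAA and GAAAGCGAAA, and in Psmb8 the match lay across the annotated start. The windows of Ly75, Ctsl and Psmb9 had none. Psmb9 and Tap1, a subunit of the peptide transporter, are neighbouring genes with no protein-coding gene between them in the RefSeq table, and the Tap1 window held 1 match. A further pattern, TTCNNNGAA, was found in the Psmb8 window alone among the 7, against 8.87% of all windows, and GGG, any 5 bases, CC was found in Ly75, Ctsl and Psmb9, against 47.3%. These matches describe letters in a window and do not show that a factor binds there.

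Of 16160 stromal barcodes the authors labelled 13226, and these had 131624350 unique molecular identifiers (UMIs, each 1 captured RNA molecule) in all and a median of 9087.5 per cell. Of 8574 thymocyte barcodes 8546 were labelled, with 64440495 UMIs and a median of 3994. Levels are CPM, the UMIs of a gene per 1000000 UMIs of a label, with exact Poisson 95% intervals; these and all other intervals cover counting error only. Labels with at least 20 cells were used, 24 in the stroma and 21 among thymocytes. Of the cell barcodes, 38 occurred in both libraries and 28 were labelled in both. The labels were made from expression in these same cells, so a difference between them describes the labelled cells and is not independent evidence. Transcripts differ in length and capture, so levels of different genes were not compared, and a ratio of 2 genes was compared between labels only.

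The cTEC label held 448 cells. All 6 cortical markers found by name (of 7 listed) had UMIs, as they did in many other labels. The chemokine Ccl25 was at 535 CPM and Tbata at 3128, against 111 and 1482 in mTEC2, an epithelial label described below. The other markers had higher values in another label. The transcription factor Foxn1 was at 54.7 CPM (48.4 to 61.6) against 76.5 (59.3 to 97.2) in mTEC2. Cd83 was at 71.2 CPM against 488 in mTEC2, and Dll4 at 9.82 against 26.3. Cxcl12 was at 1650 CPM against 1866 in early Pr, a further epithelial label. The cTEC label also carried the basal keratins Krt5 at 3119 CPM and Krt14 at 4142, which are listed as medullary. They were at 3340 and 3622 in mTEC1, a medullary label of 482 cells. Ccl21, a medullary chemokine, was at 392 CPM in cTEC and 12495 in mTEC1, and Aire, which drives tissue-restricted antigens in the medulla, had 0.201 CPM in cTEC. The B and myeloid list summed to 10.6 CPM in cTEC with 7 of 11 markers detected, and the 10 thymocyte genes summed to 33.3.

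**Figure D1:**
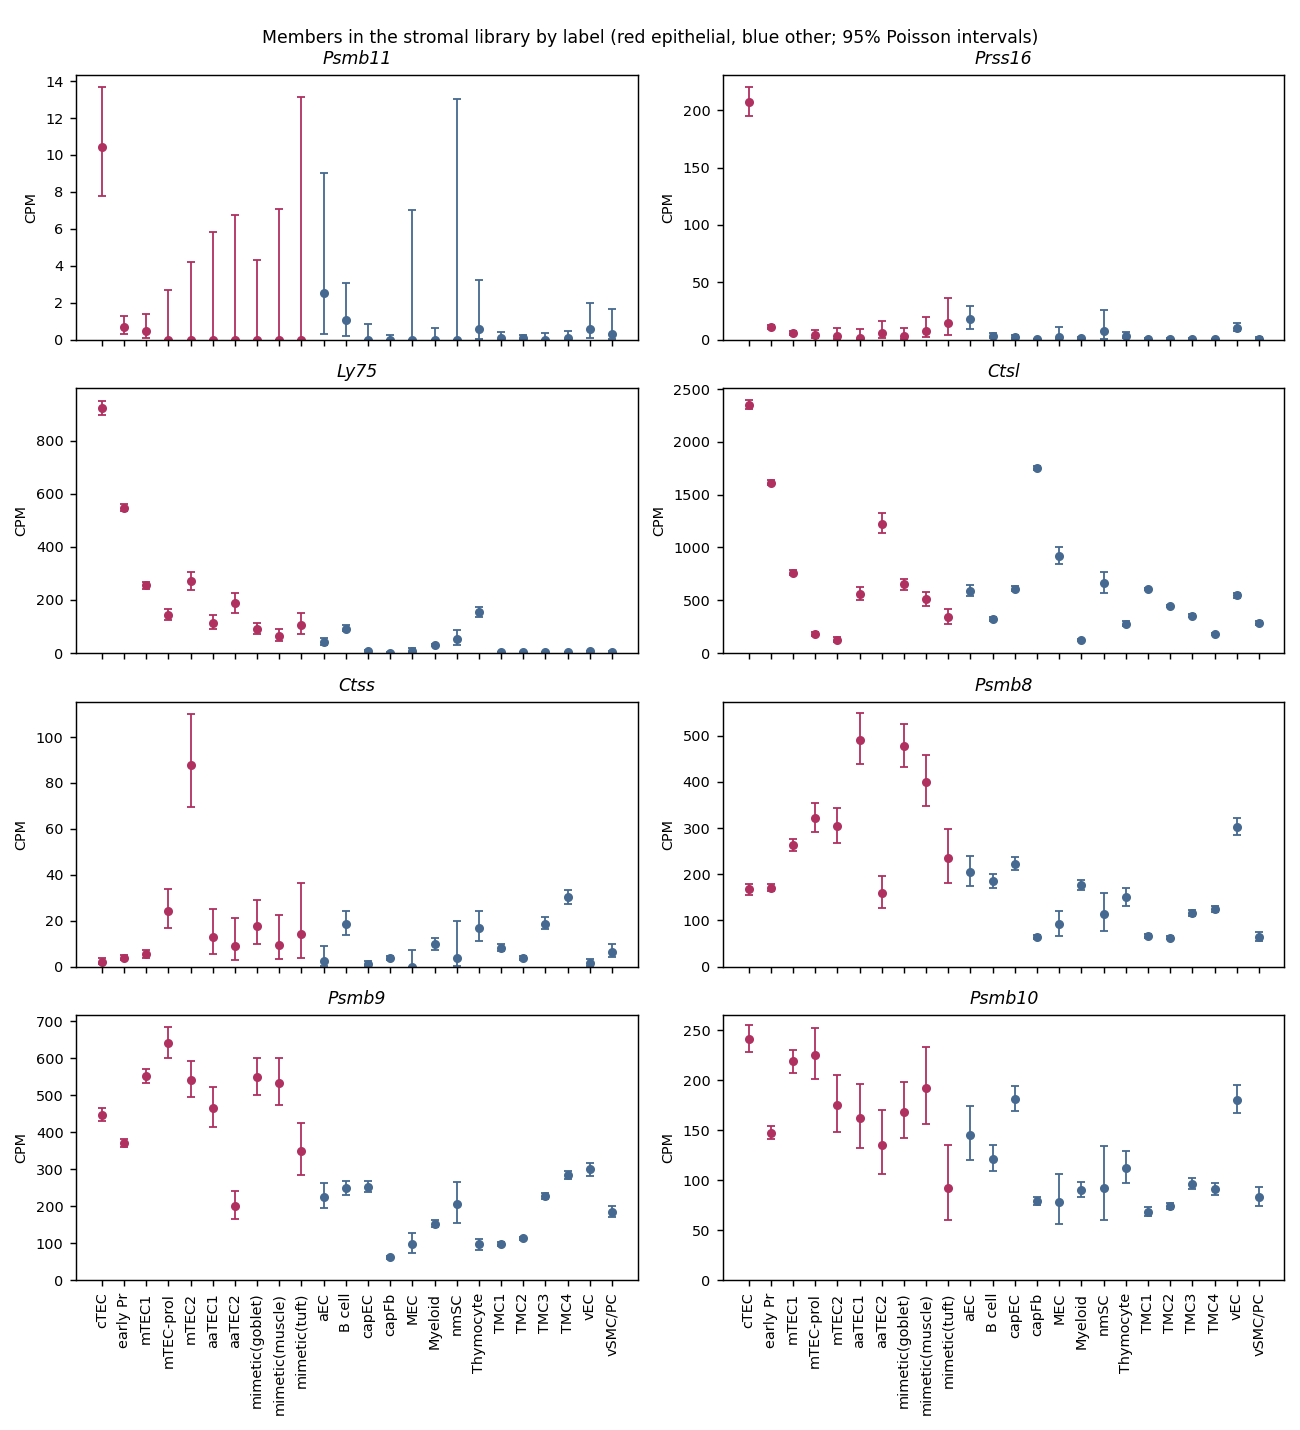
CPM of the 8 members (vertical axes, from 0) in the 24 stromal labels of at least 20 cells (horizontal axes), with points for the label's level and bars for exact Poisson 95% intervals; epithelial labels are red and other labels blue. Psmb11 at 10.4 CPM and Prss16 at 207 CPM stand out in cTEC, Ctss peaks in mTEC2 at 88.0 CPM, and Ctsl is also high in capFb at 1752 CPM.

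Psmb11, the thymoproteasome subunit, was sparse but concentrated in cTEC. The stromal library held 77 Psmb11 UMIs in labelled cells, and 52 of them (67.5%) lay in cTEC, which gave 10.4 CPM (7.79 to 13.7). The label early Pr, an epithelial label of 1018 cells, had 8 UMIs and 0.659 CPM (0.284 to 1.30), and mTEC1 had 3 UMIs and 0.466 CPM (0.0962 to 1.36). No Psmb11 UMI was seen in mTEC2 (61 cells, Aire at 468 CPM), in mTEC-prol (76 cells, Aire at 147 CPM), or in the aaTEC and mimetic labels. The count of 0 of mTEC2 allows up to 4.21 CPM (exact Poisson). At least 1 Psmb11 UMI was found in 8.93% of cTEC (6.46 to 12.0, exact Clopper-Pearson) at a median of 10535 UMIs per cell, and in 0.0487% of 8216 cells of the labels TMC1 to TMC4 and capFb at a median of 9006.5. These 5 labels, called fibroblast labels below, had summed mesenchymal markers of 4200 to 28444 CPM, against 2363 in cTEC. The lowest of them, TMC4, was below some labels outside the 5, such as Thymocyte at 8002, aEC at 5069 and aaTEC2 at 18562. The next label after cTEC was aEC, in which endothelial markers summed to 2158 CPM; it had 2 Psmb11 UMIs in 1 cell, and the ratio was 4.18 (1.10 to 35.4). Among the labels below cTEC no pair of neighbours in the order differed beyond the interval of their ratio.

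Prss16, like Psmb11, was concentrated in cTEC. Its 1033 UMIs there gave 207 CPM (195 to 220) and were 76.7% of its UMIs in labelled stromal cells; all epithelial labels together held 90.9%. A Prss16 UMI was found in 25.2% of cTEC (21.3 to 29.5) and 0.450% of the cells of the fibroblast labels, and after thinning each cell to 1000 UMIs in 10.0% and 0.0975%. The next label was again aEC with 14 UMIs, which lay in 2 of 90 cells, and the ratio was 11.8 (7.03 to 21.8). This interval overlaps that of Psmb11 (1.10 to 35.4). Early Pr had 10.8 CPM (9.02 to 12.8), mTEC1 5.60 (3.92 to 7.75), mTEC2 3.43 and pooled fibroblasts 0.468. Of all 8 members, Prss16 alone exceeded its next stromal label by at least 3-fold when the next label was counted at no fewer than 3 UMIs. Of 13149 genes 9.44% did so. Psmb11, with 2 UMIs in aEC, was at 2.78 by this rule. With the authors' initial clusters in place of the labels, the highest cluster exceeded the next by 1.03 for Prss16 and 7.44 for Psmb11.

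Ly75 was highest in cTEC but was also found in other epithelial labels and in thymocytes. It had 924 CPM (897 to 951) in cTEC, 548 (535 to 561) in early Pr, 270 in mTEC2, 255 in mTEC1 and 145 in mTEC-prol, and 2.46 in pooled fibroblasts. The levels of mTEC2 and mTEC1 overlapped in their intervals, whereas cTEC over early Pr was 1.69 (1.62 to 1.75). Cells of the label Thymocyte in the same library had 155 CPM.

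The cathepsins ran in opposite directions among cTEC, early Pr, mTEC1, mTEC-prol and mTEC2. Ctsl was highest in cTEC at 2353 CPM (2311 to 2396), followed by the fibroblast label capFb at 1752 (1732 to 1773) and early Pr at 1613 (1590 to 1635). It was 1227 CPM in aaTEC2, where mesenchymal markers summed to 18562 CPM and epithelial ones to 589 (their part was not tested), 760 in mTEC1, 180 in mTEC-prol and 128 (105 to 154) in mTEC2. Ctss was low where Ctsl was high, at 2.01 CPM (0.961 to 3.69, 10 UMIs) in cTEC and 3.71 in early Pr. The ratio of cTEC over early Pr, 0.541 (0.243 to 1.09), does not separate these labels. Ctss reached 24.1 CPM in mTEC-prol and 88.0 (69.4 to 110) in mTEC2. The fibroblast label TMC4, at 30.1 CPM, was next after mTEC2, and the ratio was 2.92 (2.25 to 3.75). The label Myeloid had 9.61 CPM of Ctss. Its C1qa, C1qb and C1qc, genes of macrophages, were at 0, while its B and myeloid list summed to 6212 CPM, led by Lyz2 at 4808 and Tyrobp at 847. Neutrophil genes were high in it, with S100a8 at 49371 CPM, S100a9 at 71122, Elane at 2727 and Mpo at 1871.

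The immunoproteasome subunits were spread over all epithelial labels and did not peak together. Psmb8 was 167 CPM (156 to 179) in cTEC and 170 in early Pr, below mTEC1 at 263 (250 to 275), mTEC2 at 304 and mTEC-prol at 322. Its highest levels were in aaTEC1 at 492 and the mimetic goblet label at 478, whose ratio of 1.03 (0.885 to 1.19) does not separate them. Psmb9 was highest in mTEC-prol at 642 CPM (600 to 685), with 552 in mTEC1, 448 in cTEC and 371 in early Pr. Psmb10 had 241 CPM (228 to 255) in cTEC, 225 in mTEC-prol and 219 in mTEC1, and cTEC over mTEC-prol was 1.07 (0.943 to 1.22). Pooled fibroblasts had 79.6 CPM of Psmb8, 140 of Psmb9 and 79.5 of Psmb10.

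Set against each other within a label, Psmb11 UMIs and the summed UMIs of Psmb8, Psmb9 and Psmb10 set cTEC apart from early Pr and mTEC1. Psmb11 takes the site of Psmb5 or Psmb8, so Psmb9 and Psmb10 are not alternatives to it. The sum is therefore not a count of immunoproteasomes against thymoproteasomes. In cTEC there were 12.2 Psmb11 UMIs per 1000 UMIs of Psmb8, Psmb9 and Psmb10 (9.08 to 16.0), in early Pr 0.956 (0.412 to 1.88) and in mTEC1 0.451 (0.0931 to 1.32). The intervals of aaTEC2 (up to 13.8) and the mimetic tuft label (up to 19.6), each with 0 Psmb11 UMIs, hold the cTEC value. Psmb11 made up 2.25% (1.69 to 2.94) of the UMIs of the 3 alternative β5 genes, Psmb5, Psmb8 and Psmb11, in cTEC, and 0.0885% (0.0183 to 0.258) in mTEC1. Among Psmb5 and Psmb8 alone, Psmb8 made up 36.9% (34.9 to 39.0) in cTEC, 47.6% in early Pr, 49.9% (48.2 to 51.6) in mTEC1 and 57.6% in mTEC2. The other catalytic pairs did not follow this order. Psmb9 was 78.7% of Psmb6 and Psmb9 in cTEC, 79.4% in mTEC1 and 79.3% in mTEC2, and Psmb10 was 72.5% (70.3 to 74.6) of Psmb7 and Psmb10 in cTEC against 68.1% in mTEC1 and 54.3% in mTEC2. In the fibroblast labels TMC1, TMC2 and capFb the Psmb8 share was 27.0% to 27.3%, and in TMC4 it was 46.4%.

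Compared directly, 4 of the 8 members were at least 2-fold higher in cTEC than in mTEC1, and 1 was at least 2-fold lower. Over all 13882 genes with at least 20 UMIs the shares were 5.5% higher and 9.9% lower. Prss16 was 37.0-fold (26.6 to 53.1), Psmb11 22.4-fold (7.24 to 112), Ly75 3.62-fold (3.42 to 3.83) and Ctsl 3.09-fold (2.99 to 3.20) higher. Ctss had a ratio of 0.379 (0.167 to 0.785), Psmb8 0.636 (0.585 to 0.692), Psmb9 0.811 (0.769 to 0.855) and Psmb10 1.10 (1.02 to 1.19). The median ratio was 2.10 for the members and 0.989 for all genes. As a mean of single cells in place of summed UMIs, Psmb9 was 1.12 and Psmb10 1.72. Thinned to 1000 UMIs per cell, Psmb8 was 1.08 (0.810 to 1.45), Psmb9 1.12 and Psmb10 2.07, and among cells of cluster TEC-b alone Psmb10 was 0.91 (0.795 to 1.04). The directions of these 3 genes thus depend on the choice.

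The proteasome around the members was within 2-fold between these labels, while 1 of 6 class I loading genes and 3 of 10 lysosomal genes were at least 2-fold lower in cTEC. Of 11 core proteasome subunits none passed 2-fold (median ratio 0.928, with 2 subunits above 1), nor did any of 9 activators and assembly factors (0.959). Psme1 and Psme2, which form the interferon-inducible activator PA28, had ratios of 0.695 and 0.630. Of 6 class I loading genes, Nlrc5, the transactivator of class I genes, was lower at 7.42 against 115 CPM (ratio 0.0646). The other 5 were within 2-fold, between 0.538 (B2m) and 0.899 (Erap1, with an interval of 0.770 to 1.05 that holds 1). All 8 class II genes lay between 1.15 and 1.70, with Ciita at 1.18 and an interval of 0.772 to 1.81 that holds 1. Of 10 lysosomal proteases and helpers, Ctsc (0.394), Lgmn (0.443) and Ifi30 (0.481) were at least 2-fold lower and none higher.

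**Figure D2:**
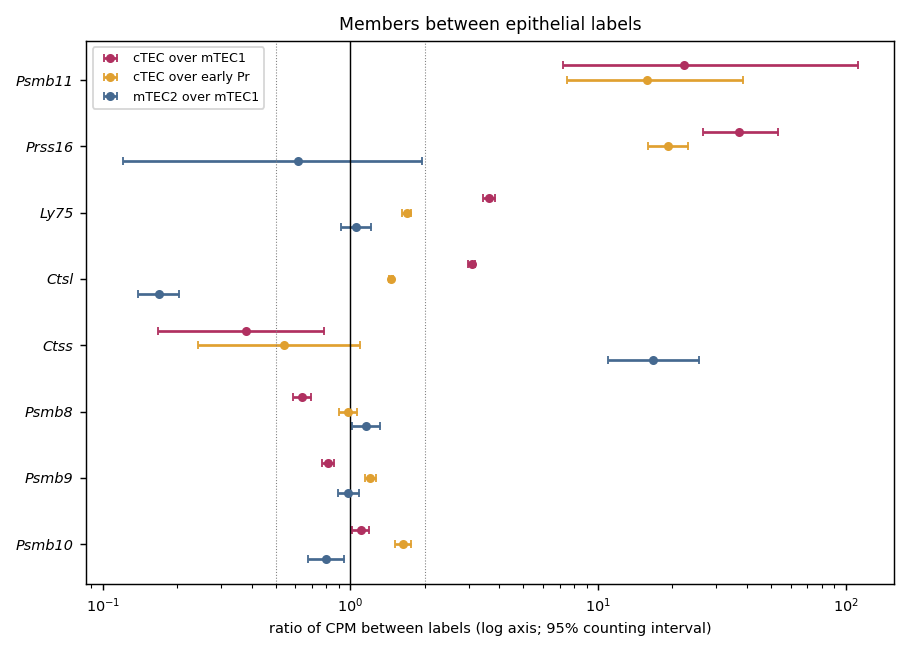
Ratios of CPM between epithelial labels (horizontal log axis) for the members (vertical axis), with exact 95% counting intervals; the solid line marks equal levels and the dotted lines 2-fold. Psmb11 and Prss16 lie far to the right for cTEC over mTEC1 (22.4 and 37.0) and for cTEC over early Pr (15.8 and 19.2), and Ctsl and Ctss lie on opposite sides for mTEC2 over mTEC1 (0.168 and 16.6). Psmb11 has no point for mTEC2 over mTEC1.

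Early Pr was set beside cTEC in a comparison added after the data were seen. Of the members, 2 of 8 members, Psmb11 (15.8-fold, 7.46 to 38.6) and Prss16 (19.2-fold, 16.0 to 23.2), were at least 2-fold higher in cTEC than in early Pr, against 3.76% of 14243 genes, and none was at least 2-fold lower, against 2.65%. Ctsl was 1.46-fold, Ly75 1.69-fold, Psmb10 1.63-fold (1.52 to 1.76) and Psmb9 1.21-fold higher, and Psmb8 was at 0.980 (0.903 to 1.06). The initial clusters, made by the authors before the labels, divide this further. Of the cTEC cells 311 lay in cluster TEC-b, as did 878 early Pr and 176 mTEC1 cells. Within TEC-b, mTEC1 cells had 1676 CPM of Ctsl and 510 of Ly75, close to early Pr at 1690 and 602, while the 232 mTEC1 cells in cluster TEC-d had 213 and 122. Within TEC-b alone, cTEC over mTEC1 was 1.64 for Ctsl, 2.26 for Ly75, 24.8 for Prss16 and 13.0 for Psmb11. Ctss was at 0.905 there on 5 and 3 UMIs, too few to give a direction (0.176 to 5.83).

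Between the medullary labels, Ctss and Ctsl differed in opposite directions. Of 7 members with at least 20 UMIs, 1 was at least 2-fold higher in mTEC2 than in mTEC1 (15.6% of all genes) and 1 lower (16.7%). Ctss was 16.6-fold higher (10.98 to 25.7), at 88.0 against 5.29 CPM, and a Ctss UMI was found in 47.5% of mTEC2 cells against 5.60% of mTEC1. Ctsl had a ratio of 0.168 (0.138 to 0.203). Psmb8 was at 1.16 (1.01 to 1.32), Psmb9 at 0.981 and Psmb10 at 0.799 (0.672 to 0.945). Class II genes were higher in mTEC2 as well: 6 of 8 class II genes were at least 2-fold higher in mTEC2 with a list median of 5.20 (all genes 0.909), led by RT1-Da at 6720 against 871 CPM, Ciita at 58.3 against 7.62 and RT1-Bb at 4419 against 655. Ifi30, a lysosomal thiol reductase, was 2.88-fold higher, and Ctsc (0.368) and Ctsb (0.418) were lower.

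Markers of other cells stood beside the Ctss level of mTEC2. Its B and myeloid list summed to 331 CPM with 10 of 11 markers detected, including Lyz2 at 241, Tyrobp at 34.3 and C1qa at 16.0, against 12.4 CPM in mTEC1. The granulocyte genes Elane and Mpo were at 119 and 143 CPM, against 3.89 and 12.7. Of 5 dendritic markers Flt3, Xcr1, Clec9a and Itgax were at 0 in mTEC2 and the fifth, Zbtb46, held the list's 34.3 CPM, against a list sum of 8.39 in mTEC1. Its thymocyte genes summed to 190 CPM against 40.3. Among cells with no UMI of any of the 11 B and myeloid markers, Ctss was 11.2-fold higher in mTEC2 than in mTEC1 (6.08 to 20.4). That filter did not use Elane, Mpo, the dendritic markers or the thymocyte genes. The part of other cells in the Ctss level of mTEC2 was not tested.

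Members varied widely among cells that carry the cTEC label. Of the 448 cells, 335 had no Prss16 UMI, 53 had 1, and 24 had at least 10, up to 113. The 10 highest cells held 56.2% of the Prss16 UMIs, against 13.6% for Ly75, 11.8% for Ctsl and 9.48% for Psmb8. Psmb11 was seen in 40 cells, of which 27 (67.5%) also had Prss16, which is 23.9% of the 113 cells with Prss16.

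**Figure D3:**
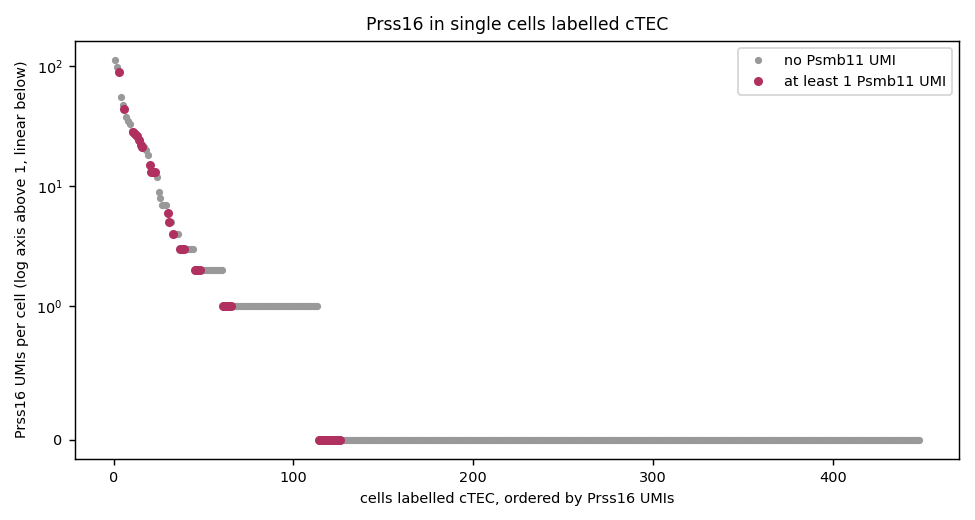
Prss16 UMIs (vertical axis, logarithmic above 1 and linear below) in each of the 448 cells labelled cTEC, ordered from high to low (horizontal axis), with cells holding a Psmb11 UMI in red and others in grey. Prss16 falls from 113 UMIs to 0 within 113 cells, and 27 of the 40 Psmb11 cells are among them.

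The 113 cells with a Prss16 UMI and the other 335 had medians of 10076 and 10678 UMIs; within TEC-b the medians were 11548 and 10650 UMIs and 4026.5 and 3690 genes. They had more of the other cortical genes: Ccl25 at 1891 against 106 CPM, Tbata at 8982 against 1276, Psmb11 at 29.2 against 4.49, Ly75 at 1619 against 704 and Ctsl at 3513 against 1986. Krt14 was 2325 against 4716 CPM. Psmb10 was 401 against 190 CPM, Psmb9 577 against 407 and Psmb8 207 against 154. When only TEC-b cells were used, the immunoproteasome part of this difference was small: in 70 cells with and 241 without Prss16, Psmb8 was 159 against 163 CPM, Psmb9 434 against 426 and Psmb10 191 (163 to 224) against 165 (150 to 182), while Ly75 was 1981 against 888 and Ctsl 3733 against 2428. The thymocyte genes summed to 98.1 CPM in the TEC-b cells with Prss16 and 26.0 in those without; their part in these differences was not tested.

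Among cTEC cells, those of cluster TEC-a (72) had the highest proteasome levels. This comparison with the 311 cTEC cells of TEC-b was chosen after the data were seen. Psmb10 was 810 against 171 CPM, a ratio of 4.72 (4.18 to 5.34), and Psmb11 39.1 against 7.06, a ratio of 5.55 (2.99 to 10.3). Psmb9 was 1.71-fold (1.53 to 1.90) and Psmb8 1.46-fold (1.20 to 1.76) higher, and the constitutive subunits were 2.94-fold (Psmb5), 2.45-fold (Psmb6) and 3.09-fold (Psmb7) higher. Ly75 had a ratio of 0.165 and Ctsl of 0.387. Thus 2 of 7 members were at least 2-fold higher, against 13.4% of 11097 genes, and 2 lower, against 33.2%.

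The neighbours in the pathway split in the same cells. All 11 core subunits were at least 2-fold higher in TEC-a (2.24 to 3.66, median 2.84, all genes 0.747), as was Pomp, the factor that assembles new proteasomes, at 1062 against 292 CPM. Of 6 class I loading genes 4 were at least 2-fold lower (list median 0.435), with Tap2 at 0.135 and Tap1 at 0.167. Of 8 class II genes 7 were (list median 0.334). Among all genes 33.2% were at least 2-fold lower in TEC-a. Relative to the summed core subunits, Psmb11 was 1.93-fold (1.04 to 3.56) and Psmb10 1.64-fold (1.45 to 1.86) higher in TEC-a, Psmb5 was level at 1.02 (0.905 to 1.15), and Psmb8 (0.507, 0.418 to 0.612) and Psmb9 (0.592, 0.530 to 0.660) were lower. Without the 5 deepest TEC-a cells, described below, Psmb11 was at 2.42 (1.30 to 4.47) by this measure and Psmb10 at 2.01 (1.77 to 2.27). Psmb8 was then at 0.627 (0.516 to 0.758) and Psmb9 at 0.724 (0.648 to 0.808). With all cells, the Psmb8 share of Psmb5 and Psmb8 was 25.1% (21.6 to 29.0) in TEC-a and 40.3% (37.7 to 43.0) in TEC-b.

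**Figure D4:**
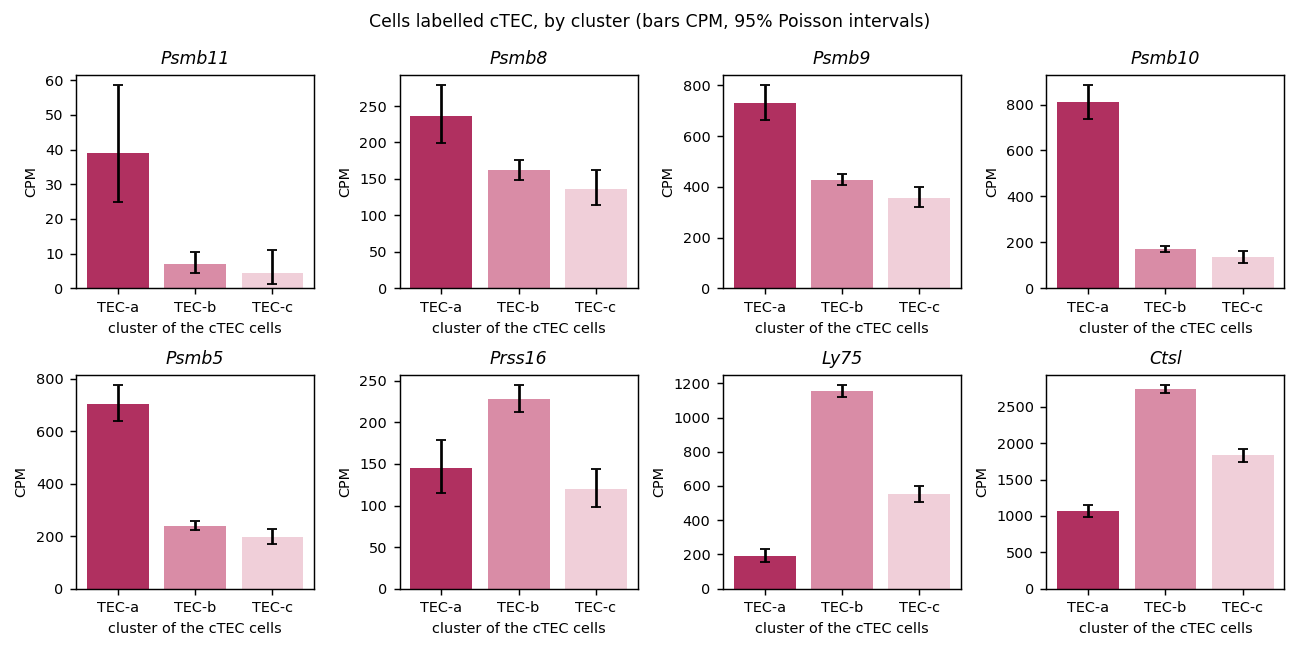
CPM (bars, from 0, with exact Poisson 95% intervals) of 7 members and Psmb5 in cells labelled cTEC, by the cluster they lie in (TEC-a 72 cells, TEC-b 311, TEC-c 55). The catalytic subunits are highest in TEC-a, Psmb10 at 810 CPM, whereas Ly75 and Ctsl are highest in TEC-b at 1153 and 2745 CPM.

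TEC-a cells also differed from TEC-b in depth and RNA make-up. Their median was 4518.5 UMIs and 1641.5 genes per cell, against 10757 and 3726, and their median mitochondrial share was 0.0439% against 1.38%. Of the cortical markers, Tbata (13019 against 1881 CPM), Ccl25 (2348 against 271) and Cd83 (451 against 22.1) were higher, and Cxcl12 (449 against 1934) and Foxn1 (35.7 against 63.2) lower. Of the epithelial markers, Epcam was lower (71.5 against 1175) but Krt8 was higher (1064 against 708). The part of depth and RNA make-up in the proteasome values was not tested. Of the 72 cells, the 5 at or above the label's 99th percentile of UMIs held 34.2% of the UMIs but none of the Psmb11, Prss16, Ly75 or Ccl25 UMIs. Without them the ratio to TEC-b was 7.0 for Psmb10, 8.43 for Psmb11, 2.53 for Psmb9, 2.19 for Psmb8, 0.566 for Ctsl and 0.963 for Prss16, which with them was 0.633, and the core subunits had a median of 3.49. Without them 4 members were at least 2-fold higher and 1 lower, as by the mean of the cells, the ratio of Cd74 was 0.521 in place of 0.344, and the Psmb8 share was 29.0% (24.9 to 33.3). A further 3 TEC-a cells were also deeper than the deepest TEC-b cell, at 23852 UMIs, and the 8 together held 49.2% of the UMIs, no Psmb11 or Prss16 UMI and 1 of Ly75. Without these 8, chosen after the data were seen, the ratio was 8.98 for Psmb10, 10.9 for Psmb11, 3.24 for Psmb9, 2.83 for Psmb8, 0.727 for Ctsl and 1.25 (0.985 to 1.56) for Prss16. The ratio of Cd74 was then 0.674, the core subunits had a median of 3.86, and the Psmb8 share was 31.2% (26.9 to 35.8).

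In the thymocyte library Psmb11 and Prss16 were nearly absent. Psmb11 had 1 UMI and Prss16 17, of which 16 lay in the label B+myeloid. That label also held the listed cortical markers at a summed 604 CPM, of which Cd83 made up 420. Tbata was at 77.8 CPM, Cxcl12 at 75.3 and Ccl25 at 28.4. Epithelial markers summed to 215 CPM, and the part of epithelial cells in its Prss16 was not tested. The other 6 members had at least 20 UMIs each. Only Ctss exceeded its next label by at least 3-fold, as 11.9% of 10010 genes did: it was 878 CPM (841 to 916) in B+myeloid and 155 in Treg, the regulatory T cells, a ratio of 5.68 (4.28 to 7.70).

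**Figure D5:**
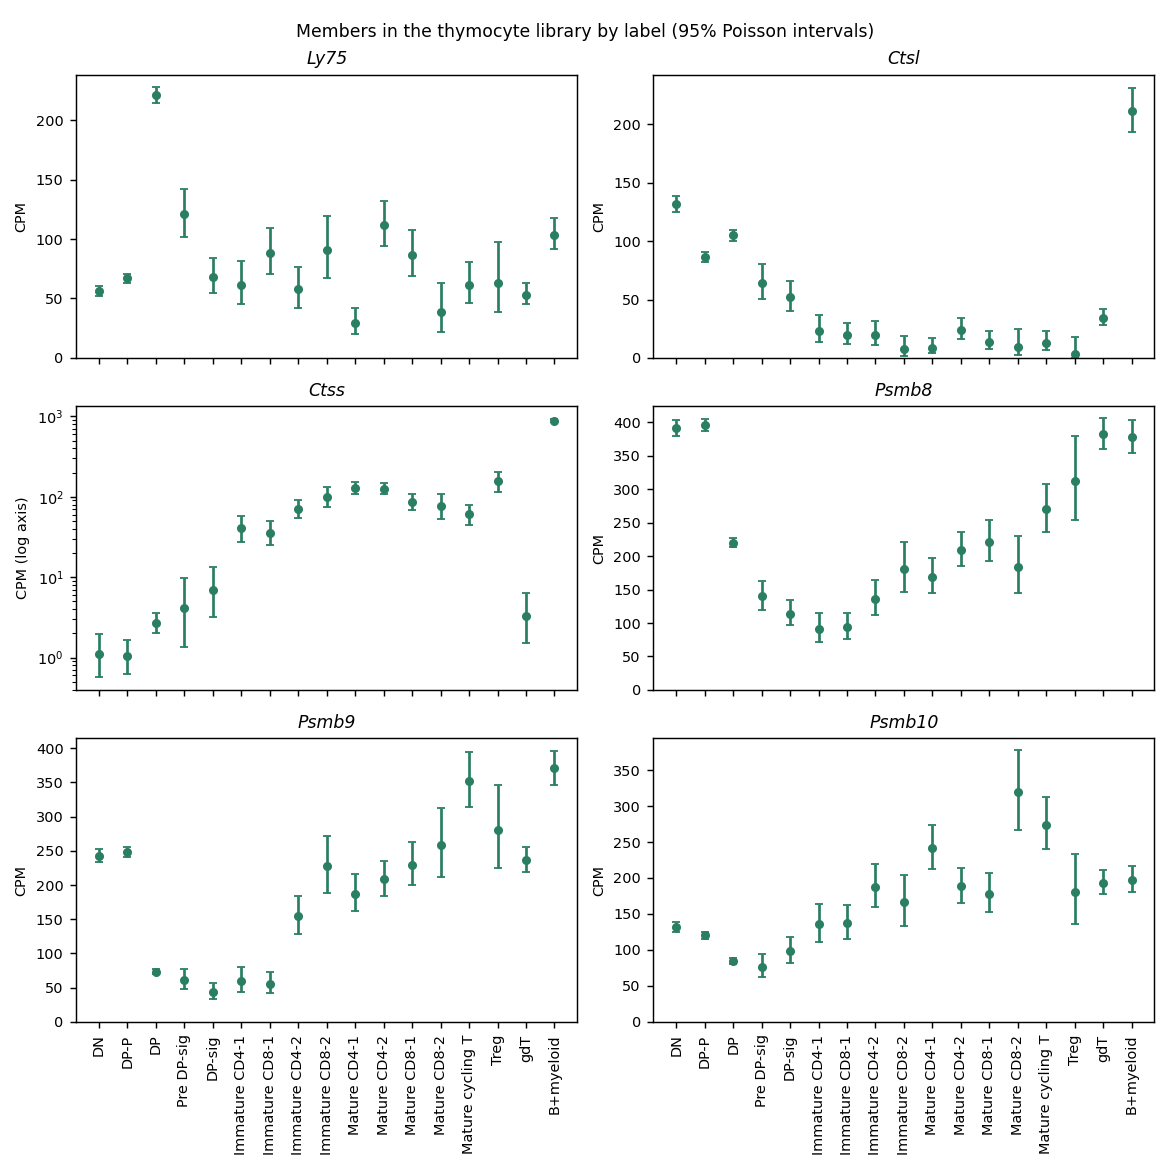
CPM of 6 members (vertical axes, logarithmic for Ctss and from 0 for the others) in 17 labels of the thymocyte library (horizontal axes, early stages left), with exact Poisson 95% intervals. Ctss is 2.70 CPM in DP and 77.3 to 128 in the 4 mature labels, while Ctsl is lower in mature labels and Psmb9 has a low point of 44.2 CPM in DP-sig.

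Thymocytes pass from the double-negative (DN) through the double-positive (DP) to the mature CD4 or CD8 stage, and each gene had its own course over these labels. Psmb8 was 391 CPM in DN and 396 in DP-P, 220 in DP, 114 in DP-sig and 91.2 (71.1 to 115) in Immature CD4-1. Psmb9 was 243, 248, 73.6, 44.2 and 59.9 CPM in the same 5 labels, and Psmb10 132, 120, 84.7, 98.6 and 136. Psmb9 was 187 to 259 CPM in the 4 mature CD4 and CD8 labels and Psmb10 178 to 319. Ly75 was highest in DP at 221 CPM (214 to 228), where the ratio to Pre-Treg, the next label, was 1.21 (0.969 to 1.52), and was 66.9 in DP-P. Ctsl went from 131 CPM in DN and 105 in DP to 8.86 to 23.9 in the mature labels.

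Mature labels (366 cells) had more Ctss and more of 2 immunoproteasome subunits than DP (5202 cells). Of 6 members, 3 were at least 2-fold higher in mature cells, against 11.2% of 12666 genes, and 2 were lower, against 21%. Ctss was 41.1-fold (30.6 to 56.1), Psmb9 2.91-fold (2.66 to 3.18) and Psmb10 2.54-fold (2.33 to 2.77) higher. Ctsl had a ratio of 0.147 (0.110 to 0.191) and Ly75 of 0.334 (0.294 to 0.378). Psmb8 was at 0.901 (0.831 to 0.975), and at 1.07 when mitochondrial, ribosomal and haemoglobin genes were left out of the totals, which moves every ratio of this comparison by 0.24 on the log2 scale.

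The catalytic pairs of thymocytes differed in their shares between stages; a share is compared between labels only. The Psmb8 share of Psmb5 and Psmb8 was 60.9% in DP, 35.2% in DP-sig, 33.3% in Immature CD4-1 and 45.6% and 55.6% in Mature CD4-1 and CD4-2. The Psmb9 share of its pair was 55.0% in DP, 33.5% (26.5 to 41.2) in DP-sig and 70.4% (64.5 to 75.7) in Mature CD4-1. The Psmb10 share went from 45.0% in DP to 73.4% in Mature CD4-1. Class I loading genes were higher too in mature cells, with 3 of 6 at least 2-fold (such as Nlrc5 at 10.3-fold and B2m at 9.06-fold) and 1, Tap2, lower at 59.5 against 690 CPM. PA28 subunits Psme1 and Psme2 were 3.16-fold and 3.75-fold higher, and none of the 11 core subunits passed 2-fold (median 1.25, all genes 0.800). The B and myeloid list summed to 7.45 CPM in DP and to 29.0 to 167 in the 4 mature labels, of which Cd79a made up 145 and 163 CPM in Mature CD4-1 and CD4-2, where Cd79b and Lyz2 were at 0. In cells with no UMI of that list Ctss was 40.3-fold higher in mature cells.

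Across the 24 stromal labels, the pattern of a member was set beside that of 13992 genes with at least 100 UMIs by Pearson's r of log2(CPM + 1). The labels share 1 library and differ in depth, so r describes these labels and has no test. Psmb11 itself had 77 UMIs in labelled stromal cells, below that minimum, and 52 of them lay in cTEC. Its values of r thus rest on few counts outside cTEC. Psmb8 and Psmb9 correlated at 0.82, Psmb9 and Psmb10 at 0.81, Psmb11 and Prss16 at 0.77, Psmb11 and Psmb8 at 0.02 and Ctsl and Ctss at -0.66. The genes most like Ly75 were Tp63 (0.93), Krt5 (0.92) and Pax1 (0.91), which are genes of basal and thymic epithelium. The nearest to Prss16 were Wdr37 (0.85), Pithd1 and Mospd2, and to Psmb11 Thrsp (0.83), Pck1 and Kcna1. For Ctsl they were L3hypdh (0.84), Prxl2c and Mxd4, for Ctss Rptor (0.81), Fam13b and Colq, for Psmb8 Ppm1h (0.88), Sms and Eno1, for Psmb9 Cep15 (0.90), Bcl10 and Qrich2, and for Psmb10 Ets2 (0.86), Nsfl1c and Chst15.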

How the data were processed

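The deposited values are UMI counts of each gene in each barcode; per the file headers, Cell Ranger 8.0.0 wrote them. The submitters' processing notes also name Seurat 5.3.0 and the rat build mRatBN7.2, without roles. The mitochondrial percent per cell is the authors' deposited value, and which genes it counts is not given in the sources used here. Labels are the authors' projected label, or else their initial cluster. UMIs were summed per label of at least 20 cells. Levels have exact Poisson, shares exact Clopper-Pearson and ratios exact conditional binomial 95% intervals. A count under 3 UMIs in a denominator was set to 3 for leads over the next label. Genes past 2-fold were counted among those with at least 20 UMIs over both labels. Depth limits precision most for Psmb11. Doublets were neither called nor taken out. The 2 libraries share no normalization and were not compared.

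Samples were grouped by the submitted cell type, 1 per group. The members, gene lists and comparisons were chosen with earlier results of these data known. All 8 members are named; of the other lists at most the 3 genes with the largest ratio in either direction, or all where few passed, are named, and the 3 genes most like each member. The marker Kitl was not a feature name, which leaves 6 of 7 cortical markers. The alternatives were filters on cells (at least 1000 UMIs, below the 99th percentile of UMIs, fewer than 3 UMIs of 10 thymocyte genes, no UMI of 11 B and myeloid markers), the mean of the cells' CPM, smaller totals, thinning to 1000 UMIs and the initial clusters. TEC-a against TEC-b, cTEC against early Pr, the restriction to TEC-b and leaving out cells deeper than any of TEC-b were added after seeing the data. RefSeq symbols (GRCr8) matched 29433 of 34034 feature names and all 8 members. The 2 spatial tables were not used. The ratio scripts were tested on simulated data. Python 3.11.15, NumPy 2.4.6, SciPy 1.17.1, pandas 2.3.3, matplotlib 3.10.9 and seed 7 were used.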

Additional observations from a re-analysis of the deposited data

Results flagged for a closer look

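The 2934 stromal barcodes that carry no label from the authors lie outside every comparison above and held 8663291 UMIs. Prss16 was at 32.3 CPM in them (28.6 to 36.3, 280 UMIs), above 10.2 (9.69 to 10.8) in labelled cells. Ly75 was at 182 CPM against 112, and Ctss at 12.9 against 9.34. Psmb11 was at 0.923 CPM on 8 UMIs, and its interval (0.399 to 1.82) held the 0.585 of labelled cells. Of the unlabelled barcodes, 67 had more genes than any labelled cell, and Prss16 was at 53.9 CPM in them and 20.6 in the other 2867, whereas Ly75 was at 136 and 206. Psmb8 was at 211 CPM and Psmb9 at 332 in those 67, 58.4 and 93.8 in the other 2867, 112 and 178 in all unlabelled barcodes, and 131 and 220 in labelled cells.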

How the results depend on the processing

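No paired analysis was possible because every group is a lone sample. Of 487 recomputed values, 367 stayed within the interval or 1.5-fold of the count, 108 moved outside it and 12 changed direction. All 68 with cells of at least 1000 UMIs stayed, but that filter left out only 83 stromal cells and 51 thymocytes. Thinning to 1000 UMIs moved 32 of 64 values and reversed 5, and the mean of the cells moved 23 of 60 and reversed 3. Leaving out cells deeper than any of TEC-b moved 8 of 9 values of TEC-a over TEC-b and reversed 1. For cTEC over mTEC1, the mean of the cells gave 2.62 for Ctsl and 1.12 for Psmb9, thinning gave 96.5 for Prss16, 2.84 for Ctsl, 1.08 for Psmb8, 1.12 for Psmb9 and 0 members lower, and TEC-b alone gave 24.8 for Prss16, 1.64 for Ctsl, 0.91 for Psmb10 and 0 lower. For mTEC2 over mTEC1, Psmb8 was 0.969 without B and myeloid UMIs, Ctss 10.6 when thinned, and 2 members were lower by the mean of the cells, by which 1 was lower for cTEC over early Pr. For TEC-a over TEC-b, Psmb10 was 7.0 without the deepest cells, 7.85 by the mean of the cells and 7.25 thinned, without the cells deeper than any of TEC-b Psmb10 was 8.98, Psmb11 10.9 and Prss16 1.25, Prss16 was 1.26 by the mean of the cells and 1.22 thinned, and 4 members were higher and 1 lower without the deepest cells under both choices and by the mean of the cells, 1 lower when thinned. For mature over DP, smaller totals gave 3.44 for Psmb9 and 1.07 for Psmb8, and thinning 3.29 and 1.14. The stromal lead of Psmb9 was 0.979 by the mean of the cells and 0.925 thinned. Thinning gave 6.24 Psmb11 UMIs per 1000 UMIs of Psmb8, Psmb9 and Psmb10 and 1.22% of β5 UMIs in cTEC. With at least 100 UMIs, 385 genes were higher and 658 lower in cTEC than mTEC1, and with at least 1 UMI 2817 and 3191, against 764 and 1374. The causes were not tested. The initial clusters hold no cTEC or mTEC label, so that alternative gave values for thymocytes and for the leads alone. Psmb11 after thinning rests on few UMIs and gives no ratio to mTEC1.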
